A study of Mus musculus with 4 samples.

Results

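AP-1 is a family of paired transcription factors, and this account describes the genes of its Fos and Jun branches with 3 immediate early partners in cultured mouse alveolar type II cells. The 10 genes, taken by symbol from the Entrez identifiers, were Fos, Fosb, Fosl1 and Fosl2, then Jun, Junb and Jund, and then Egr1, Atf3 and Ier2. All 10 were found among the 28096 identifiers of each table. Fos proteins bind DNA mainly as pairs with Jun proteins, whereas Jun proteins also pair among themselves. Both use a basic region followed by a leucine zipper. Fos, Fosb, Jun, Junb, Egr1, Atf3 and Ier2 are immediate early genes, whose transcription starts within minutes of growth factor, stress or wounding signals and needs no new protein. Fosl1 and Fosl2 are activated later and for longer, and Fosl1 is a well-known output of RAS and ERK signalling in epithelium.

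The samples were 4 libraries of polyadenylated RNA that share the label KRasEtv wt, and they form a single group. Per the design text the study had 3 genotypes of 4 mice, all with KRaswt/d12 and RosaCreERT2: the first has nothing else, the second adds Etv5loxp/loxp, and the third adds Etv4KO/KO and Etv5loxp/loxp. The labels do not say which of these the label stands for, and no other label was analysed here. RosaCreERT2 is a tamoxifen-activated Cre made in most cell types, so recombination was not limited to type II cells by the allele itself. Cells were sorted from lung by surface EpCAM without CD24, CD45, CD31 or Pdpn, embedded in matrigel with BEGM and 100 nM 4OHT (hydroxytamoxifen) for 4 days, and kept 1 further day without it. RNA was therefore taken days after sorting, in continuous culture, and no uncultured or unstimulated sample was analysed. The labels give no age and tie no library to a mouse, so p-values measure the spread between these libraries, which may be technical. Libraries are numbered 1 to 4 in accession order, and the numbers carry no other meaning.

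Total counts lay between 12133251 and 13591876 reads per library, and mitochondrial ribosomal RNA took 19.6% to 38.9% of them. Levels below are the deposited nRPKM, reads per gene corrected for sequencing depth and for the length of the gene, so that genes can be set side by side. Log2 values are of nRPKM plus 1. The libraries held the markers of the labelled cell type: all 12 type II genes had a mean of at least 10 nRPKM, with Sftpc at 10006 ± 3649, Sftpb at 3065 ± 1133 and Lyz2 at 1663 ± 381 (SD, n = 4). All 12 were lowest in library 1, against 3524 of the 13156 genes tested for spread between libraries. Their summed level there was 11468 nRPKM, against 18481 to 24310 in the other libraries. All 8 type I markers also had a mean of at least 10 nRPKM, led by Aqp5 (185 ± 15.6), Ager (156 ± 48.1) and Emp2 (116 ± 20.7; SD, n = 4). Pdpn, a type I marker whose surface protein was sorted against, had 21.1 ± 5.34 after culture.

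Among the 10 genes, Egr1, which encodes a zinc finger factor induced by ERK signalling, had the highest mean level by the authors' gene lengths, 13.0 ± 3.67 nRPKM (SD, n = 4). Fosl1 followed with 11.1 ± 6.35, Fosl2 with 10.4 ± 4.20 and Jun with 8.18 ± 2.25. A lower group held Atf3 (4.54 ± 2.96), Fos (4.49 ± 1.82), Ier2 (4.21 ± 0.871), Jund (3.75 ± 1.39) and Junb (3.69 ± 0.817), and Fosb was lowest with 0.296 ± 0.181. The mean was at least 1 nRPKM for 9 genes and at least 10 for 3 genes, but no gene reached 10 in every library. The median over the 10 genes was 4.51 nRPKM, near the median of 4.97 over the 13156 genes tested for spread. Only 2 steps in this order exceeded the SD of their own log2 difference and held in all 4 libraries: Jun above Atf3 (0.83 ± 0.40) and Junb above Fosb (1.85 ± 0.11). Within the upper group and within the lower group, neighbours in the order were not separated by more than their spread. The top rank depended on gene length, since the authors' Egr1 model is 0.688 times as long as the GENCODE transcript. With GENCODE lengths, a choice made after seeing the data, Egr1 had 8.95 ± 2.53 nRPKM, below Fosl1 (10.2 ± 5.83) and Fosl2 (9.39 ± 3.78; SD, n = 4).

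**Figure D1:**
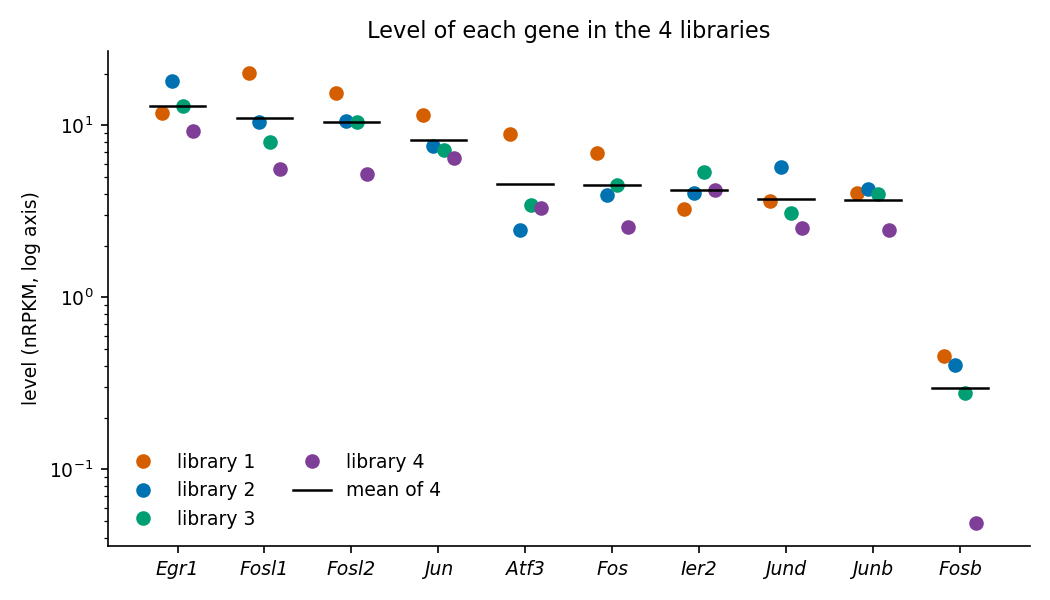
Level of each of the 10 genes in nRPKM on a log axis, 1 point per library with the mean of 4 as a line. Egr1 (9.27 to 18.0), Fosl1, Fosl2 and Jun sit at the top and Fosb (0.0487 to 0.455) at the bottom, and library 1 is the highest point for 6 genes and library 4 the lowest for 8.

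In the Fos branch, the later-acting Fosl1 and Fosl2 carried most of the signal by the deposited levels, and Fos itself less. The level of Fosl1 is uncertain, as described below. Fosl1, the gene of FRA1, had 20.1, 10.5, 7.98 and 5.61 nRPKM in libraries 1 to 4, from 698, 319, 285 and 156 reads. Fosl2, the gene of FRA2, had 15.5, 10.6, 10.4 and 5.22 nRPKM from 499 to 1853 reads. Library 1 gave the top value of both genes and library 4 the bottom one, with libraries 2 and 3 between them. Fos, the founding member, had 6.94, 3.93, 4.49 and 2.58 nRPKM from 88 to 296 reads. It kept the same highest and lowest library. Fosb had 0.455, 0.403, 0.278 and 0.0487 nRPKM from 35, 27, 22 and 3 reads. In library 4 its count was at the floor of 3 reads, 0.221 CPM (reads out of every 1e6; 95% Wilson interval 0.0751 to 0.649), against 2.88 (2.07 to 4.01) in library 1. These intervals do not overlap, but they hold for counting error alone, as amplified copies of a molecule were not marked. The short and long Fosb proteins come from splice forms that gene counts cannot separate.

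Within each library, Fosl1 lay above Fos in 4 of 4, by a ratio of 2.38 ± 0.504, and Fosl2 lay above Fos in 4 of 4, by 2.32 ± 0.285 (SD, n = 4). The log2 differences were 1.06 ± 0.32 and 1.03 ± 0.18. Each gave p = 0.13 in the two-sided exact sign-flip permutation test, the smallest p that 4 libraries allow, and an adjusted p of 0.161 over the 9 paralog pairs tested, so neither reached 0.05. Fos lay above Fosb in 4 of 4 libraries by 2.03 ± 0.31 on the log2 scale, with the same exact permutation p. Fosl1 and Fosl2 could not be ranked: Fosl1 was higher in libraries 1 and 4 and lower in libraries 2 and 3, with a difference of 0.02 ± 0.29 (exact permutation p = 0.75, adjusted p = 0.844). Fosl1 made up 34.5% to 46.7% of the summed Fos branch level, Fosl2 36.1% to 44.8%, Fos 15.4% to 19.4% and Fosb 0.362% to 1.58%. The sum of the branch was 43.0, 25.5, 23.1 and 13.5 nRPKM in libraries 1 to 4.

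The Fosl1 values carry a limit that the other Fos genes do not. In the GENCODE vM21 annotation of GRCm38, 58.9% of the 50-base words of the Fosl1 transcript lie in Ccdc85b, a gene on the opposite strand whose exons overlap those of Fosl1. The deposited counts of Ccdc85b were 720, 385, 314 and 188, close to the 698, 319, 285 and 156 of Fosl1. The sources used here do not say whether strand was used in counting, so reads of the pair cannot be told apart. The level of Fosl1 is therefore uncertain, and so are the shares of the Fos branch, which rest on it. Fos, Fosb and Fosl2 shared no such word with another gene.

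In the Jun branch, Jun had the highest level by the authors' gene lengths. Jun, the partner that most Fos pairs contain, had 11.5, 7.56, 7.22 and 6.45 nRPKM from 746, 428, 482 and 335 reads. Library 1 lay apart at the top and the other 3 libraries lay close together. Junb, which can act against Jun at some promoters, had 4.02, 4.27, 3.99 and 2.48 nRPKM from 73 to 151 reads. Libraries 1 to 3 were nearly equal and library 4 was lower. Jund, the most constitutively transcribed of the 3, had 3.65, 5.71, 3.10 and 2.54 nRPKM from 119 to 292 reads. It was highest in library 2 and not in library 1.

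Jun lay above Junb in 4 of 4 libraries by 0.96 ± 0.30 on the log2 scale and above Jund by 0.96 ± 0.45 (two-sided exact permutation p = 0.13 for each, adjusted p = 0.161). Junb and Jund did not differ beyond their spread (2 of 4 libraries each way, SD of the difference 0.27, exact permutation p = 1). Jun made up 52.4% ± 7.36 of the branch (SD, n = 4), least in library 2 (43.1%) and most in library 1. Read overlap and gene length limit Jund in particular: 48.3% of its words lie in Gm11175 on the opposite strand, and the authors' gene model is 1.73 times as long as the GENCODE transcript. With GENCODE lengths, Jun exceeded Jund by 0.32 ± 0.47, in 3 of 4 libraries, and Jund exceeded Junb by 0.64 ± 0.29, in 4 of 4. For Jun, 5.83% of words lie in Junos on the opposite strand. Prdx2 overlaps exons of Junb on the opposite strand, with no shared word in the transcript examined.

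The Fos branch sum exceeded the Jun branch sum in 4 of 4 libraries, by 0.63 ± 0.38 on the log2 scale (two-sided exact permutation p = 0.13, the smallest possible). The ratio of the sums was 2.24 in library 1 and 1.45, 1.61 and 1.17 in libraries 2 to 4. Fos alone was below Jun in every library, at 0.400 to 0.622 times its level. The excess did not hold in every library with Fosl1, whose level is uncertain, left out. Without Fosl1, the Fos branch summed to 22.9, 15.0, 15.1 and 7.85 nRPKM against 19.1, 17.5, 14.3 and 11.5 in the Jun branch, so it was higher in libraries 1 and 3 and lower in libraries 2 and 4. That difference was -0.10 ± 0.33 (two-sided exact permutation p = 0.75). The Jun branch kept Jund here, although Jund also overlaps a gene on the opposite strand. A difference with both genes left out was not computed. With GENCODE lengths for all genes, the full Fos branch exceeded the Jun branch by 0.30 ± 0.40, in 3 of 4 libraries (two-sided exact permutation p = 0.25). Both checks were added after seeing the data. By the authors' lengths, Fosl1 was above Jun in libraries 1 to 3 and below it in library 4 (0.870 times), and the same held for Fosl2 (0.810 times in library 4).

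**Figure D2:**
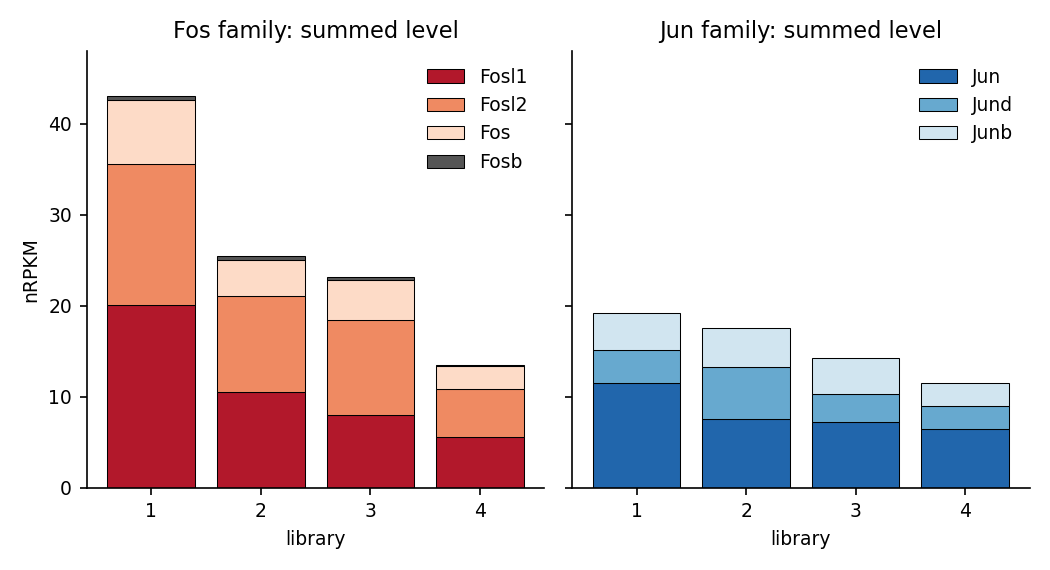
Summed nRPKM of the Fos branch (left) and the Jun branch (right) in each library, stacked by gene on an axis from 0. The Fos branch goes from 43.0 in library 1 to 13.5 in library 4, and the Jun branch goes from 19.1 to 11.5. Fosl1 and Fosl2 keep most of every Fos branch bar, but the level of Fosl1 is uncertain.

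Outside both branches, Egr1 had 11.8, 18.0, 13.0 and 9.27 nRPKM from 464 to 982 reads. Library 2 gave its top value and library 4 its bottom one, a range of 1.94 times. By the authors' lengths, Egr1 exceeded Fos by 1.70 times in library 1 and by 2.90 to 4.58 times in the others, although growth factors induce both genes through serum response elements. Atf3, a stress-induced member of the same leucine zipper superfamily that can pair with Jun, had 8.93, 2.45, 3.45 and 3.32 nRPKM from 360, 86, 143 and 107 reads. Library 1 stood alone, with a range of 3.65 times, and libraries 2 to 4 lay close together. Ier2, a small nuclear protein gene induced with Fos, had 3.26, 4.03, 5.37 and 4.19 nRPKM from 101 to 171 reads. Ier2 had its lowest level in library 1 and its highest in library 3, and its range of 1.65 times was the narrowest of the 10. Egr1, Atf3 and Ier2 shared no 50-base word with another annotated gene.

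Promoter sequence was examined because several of these genes are known to be regulated through AP-1 or CREB and ATF sites in their own promoters. RefSeq windows on GRCm38.p6, a build other than the mm9 of the counts, were used for 7 of the 10 genes. None was used for Fosl1, Egr1 and Ier2. Windows on a chromosome were left out of the search of members, so a gene without a used window may still have one. The 250 bases before the start site were searched on both strands for the AP-1 site TGANTCA, its wider-spaced form TGANNTCA, the core TGACG of CREB and ATF sites and the CArG box bound by serum response factor. TGACG does not overlap the other matches found. It occurred in 4 of the 7 genes (Fos, Fosb, Junb and Atf3), against 17.8% of 32851 windows. TGANNTCA occurred in Jun and Jund, against 11.9% of windows. TGANTCA (6.75% of windows) and the CArG box (1.47%) matched none of the 7 windows, which says only that these letters are not in them. The 150 bases before the start site are shown for the 5 genes that are immediate early and had a match, with the matches in capitals.

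Fos (chr12:85473740-85473889, plus strand): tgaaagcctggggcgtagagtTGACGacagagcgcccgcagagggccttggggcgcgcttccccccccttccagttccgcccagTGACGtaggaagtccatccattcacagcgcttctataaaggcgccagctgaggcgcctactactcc
Fosb (chr7:19310046-19310195, minus strand): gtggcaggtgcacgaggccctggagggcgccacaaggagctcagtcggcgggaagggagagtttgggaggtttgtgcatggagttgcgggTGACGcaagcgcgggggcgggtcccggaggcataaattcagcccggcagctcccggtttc
Jun (chr4:95052223-95052372, minus strand): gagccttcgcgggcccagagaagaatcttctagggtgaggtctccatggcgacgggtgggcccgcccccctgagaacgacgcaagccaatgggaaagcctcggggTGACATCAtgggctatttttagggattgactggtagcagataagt
Junb (chr8:84978749-84978898, minus strand): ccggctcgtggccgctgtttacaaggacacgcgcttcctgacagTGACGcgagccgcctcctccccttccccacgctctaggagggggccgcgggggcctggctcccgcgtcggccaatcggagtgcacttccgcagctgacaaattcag
Atf3 (chr1:191183334-191183483, minus strand): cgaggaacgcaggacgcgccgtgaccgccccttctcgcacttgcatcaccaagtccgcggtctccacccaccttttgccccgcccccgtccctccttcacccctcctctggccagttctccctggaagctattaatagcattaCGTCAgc

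In Fos the match nearest the start lies at positions -66 to -62 and a second one at -129 to -125, counted back from -1 at the base before the start. In Fosb the match lies at -60 to -56, near that position, and in Junb at -106 to -102. Atf3 carries its match at -7 to -3 on the reverse strand. Jun carries the wider-spaced form at -45 to -38. A match is a description of the sequence and no evidence of binding.

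Across libraries, the genes that were high in library 1 were those of the Fos branch, Jun and Atf3. Library 1 held the highest level of 6 of the 10 genes (Fos, Fosb, Fosl1, Fosl2, Jun and Atf3), 5 of them among the 9 tested members, against 23.3% of the 13156 tested genes. Library 4 held the lowest level of 8 of the 10 (all but Atf3 and Ier2), 7 of them among the tested members, against 26.7% of tested genes. The median over the 9 tested members lay 0.47 log2 units above the mean of the libraries in library 1 and 0.41 below it in library 4 (deviation -0.41). Over all tested genes these medians were -0.01 and 0.00. Fosb was the 10th gene and was not tested, since its 3 reads in library 4 fell below the filter.

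GC content moved with the low values of library 4. Of all tested genes with a transcript in GENCODE (86.5%), library 4 was lowest for 7.86% of genes in the lowest of 5 equal GC bins and for 53.1% in the highest. Of the 10 genes, 6 lie in the top bin (Fosb, Fosl1, Junb, Jund, Egr1 and Ier2), 3 in the next and Fos in the middle one, and none lies below. After subtraction of the median deviation of each bin in each library, a step added after seeing the data, 6 of the 10 genes were lowest in library 4. Jun and Jund were not among them. The count rests on narrow margins: Fosb went from -0.29 to -0.12 in library 4, against -0.11 in library 3 after the step, on 3 reads. Jun missed with -0.20 in library 4 against -0.22 in library 3. The share of all tested genes lowest in library 4 after the step was not computed. The deviation in library 4 went from -0.73 to -0.56 for Fosl1, from -0.41 to -0.24 for Junb and from -0.41 to -0.24 for Egr1, and stayed large for Fosl2 (-0.79 and -0.72) and Fos (-0.56 and -0.57). The same 6 genes were highest in library 1 with and without the step. The share of all genes highest in library 1 was between 21.0% and 26.7% in every bin. Library 4 also had the largest share of mitochondrial ribosomal RNA, 38.9%, whose part in the result was not tested.

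**Figure D3:**
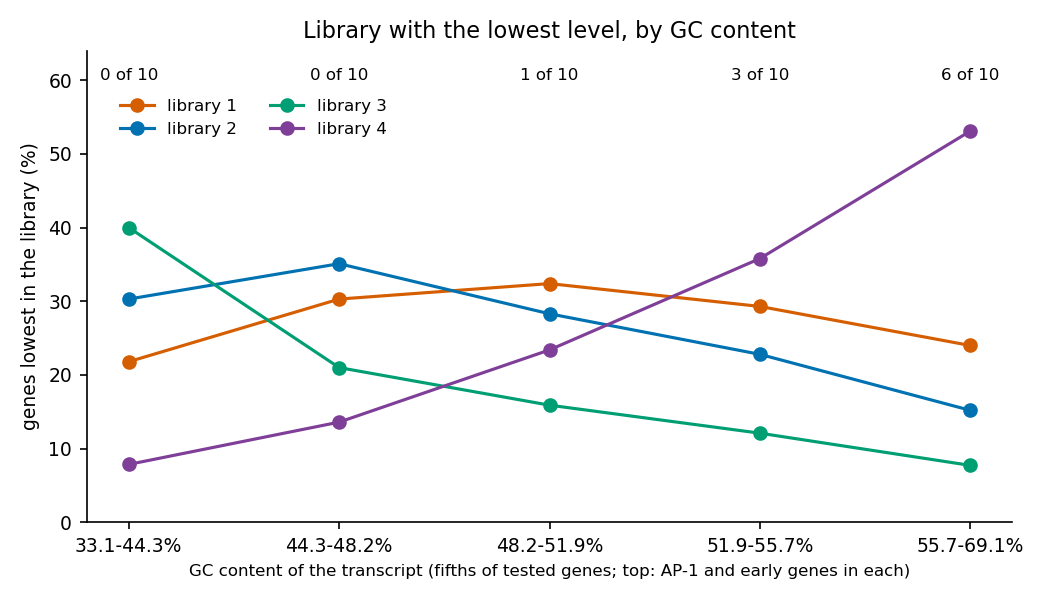
Percent of tested genes whose lowest level was in each library, in 5 equal bins of transcript GC content, with the number of the 10 AP-1 and early genes in each bin printed above. The line of library 4 climbs from 7.86% to 53.1% and those of libraries 2 and 3 end at 15.2% and 7.73%, and 9 of the 10 genes sit in the upper 2 bins.

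No member was called for a spread between libraries beyond the trend over all genes. In edgeR's quasi-likelihood dispersion test, 0 of the 9 tested members passed an adjusted p of 0.05, against 0.0152% of tested genes (2 of 13156). The smallest adjusted p was 0.709, for Fosl1 (edgeR, n = 4). At an unadjusted p of 0.05 the test passed 3 members, Fosl1 (p = 0.00861), Atf3 (p = 0.0116) and Fosl2 (p = 0.0227), against 5.13% of tested genes (edgeR quasi-likelihood, no permutation). Without library 1 only Fosl2 did. DESeq2 marked none of the 9 as a dispersion outlier, against 0.471% of tested genes. Coefficients of variation were 65.3% for Atf3, 61.0% for Fosb, 57.4% for Fosl1, 40.6% for Fos and 40.3% for Fosl2, then 36.9% for Jund, 28.2% for Egr1, 27.5% for Jun, 22.1% for Junb and 20.7% for Ier2. The median over the 9 tested members was 36.9%, and over all tested genes 20.8%.

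**Figure D4:**
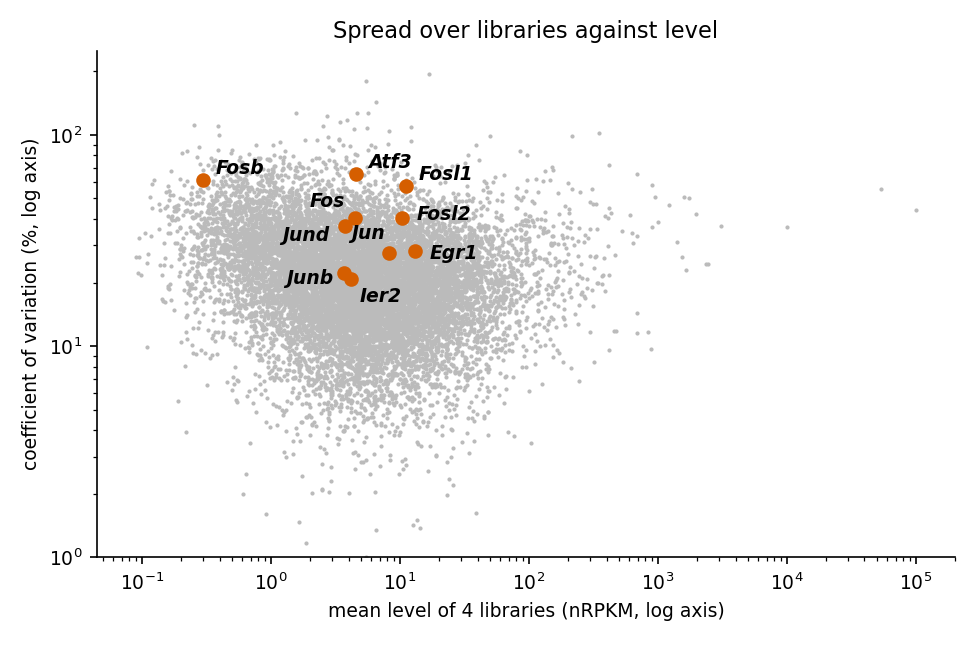
Coefficient of variation over the 4 libraries against mean nRPKM, both on log axes, for all 13156 tested genes (grey) and the 10 AP-1 and early genes (orange; Fosb was not tested). Atf3 (65.3%) and Fosl1 (57.4%) lie in the upper part of genes of their level, and Ier2 (20.7%) and Junb (22.1%) lie within the mass.

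Of 21 other basic leucine zipper genes, listed as partners and relatives, 18 had a mean of at least 1 nRPKM. Of 19 tested, 11 were highest in library 1, against 23.3% of tested genes, and 4 were lowest in library 4, against 26.7%. None of the 19 was called for spread in the edgeR test, had an unadjusted p under 0.05 or was a DESeq2 outlier, and their median coefficient of variation was 22.5%. The highest were the oxidative stress factor gene Nfe2l2 (271 ± 45.9 nRPKM), the amino acid stress factor gene Atf4 (54.5 ± 12.1) and the Jun partner gene Atf2 (22.0 ± 2.19; SD, n = 4). Nfe2l2 was highest in library 2 (332) and had 225 in library 1. All 3 exceeded every member of the Fos and Jun branches in mean level.

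Of 18 other immediate early transcription factors, 13 had a mean of at least 1 nRPKM. Library 1 gave the top value of 10 of 14 tested and library 4 the bottom value of 3, against 23.3% and 26.7% of tested genes. Bhlhe40 had 43.7 ± 8.25 nRPKM, Klf6 24.3 ± 8.68 and the proliferation factor gene Myc 19.3 ± 3.82 (SD, n = 4). Klf6 stood at 37.2 in library 1 against 18.8 to 21.9. Of 24 immediate early genes that encode no transcription factor, 20 had at least 1. Library 1 gave the top value of 13 of 20 tested, and library 4 the bottom value of 13, against the same 23.3% and 26.7% of tested genes. Errfi1, an inhibitor of EGF receptor signalling and the highest of them, did not follow: it had 96.2 nRPKM in library 1, its lowest value, against 97.8 to 121 in the others. The prostaglandin synthase gene Ptgs2 had 52.8 ± 31.4 and the matrix signalling gene Ccn1 50.6 ± 7.90 (SD, n = 4). Ptgs2 had 99.8, 38.2, 39.6 and 33.6 nRPKM. The ERK and JNK phosphatase gene Dusp1, named after its values were seen, had 30.8, 11.4, 12.9 and 12.8. None of these genes was called for spread in the edgeR test. At an unadjusted p of 0.05 it passed 0 of 14 factors and 6 of 20 other genes, against 5.13% of tested genes. DESeq2 outliers numbered 0 in both lists.

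Genes often cited as AP-1 targets had a median coefficient of variation of 39.5%, near the 36.9% of the tested members. Of 26 listed, 22 had a mean of at least 1 nRPKM. Library 1 was highest for 16 of 22 tested, against 23.3% of tested genes, with a median deviation of 0.60 log2 units. It was lowest for none, against 3524 of 13156 tested genes. The highest means were those of the keratin gene Krt18 (196 ± 71.7 nRPKM), the secreted matrix protein gene Spp1 (167 ± 88.3) and the EGF family gene Areg (167 ± 41.7; SD, n = 4). Of the 22, 0 were called in the edgeR test. An unadjusted p under 0.05 was found for 11, against 5.13% of tested genes, and 4 were DESeq2 outliers, against 0.471%. Named after their values were seen, the collagenase gene Mmp13 had 14.6, 4.70, 2.25 and 3.90 nRPKM, the protease inhibitor gene Timp1 had 29.2, 8.48, 4.13 and 7.17, and the urokinase receptor gene Plaur had 34.6, 16.1, 12.7 and 8.57. Of Mmp13, Timp1 and Plaur, only Plaur had its lowest level in library 4, as Fosl1 did. Over the list, 7 of 22 tested were lowest there, Krt18 (137) included, against 26.7% of tested genes. Such genes answer to many other factors, and their level is no measure of AP-1 activity.

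Of 22 kinases and regulators that act on AP-1, 19 had a mean of at least 1 nRPKM. Of 20 tested, 2 were highest in library 1, against 23.3% of tested genes, and 4 lowest in library 4, against 26.7%. Library 1 was lowest for 8 of the 20, against 3524 of 13156 tested genes. The ERK1 gene Mapk3 led with 62.6 ± 11.3, then Rps6ka3, whose kinase acts below ERK, with 34.4 ± 7.75, and Gsk3b, whose kinase phosphorylates Jun, with 29.5 ± 3.08. The JNK genes Mapk9 and Mapk8 had 9.03 ± 0.477 and 2.41 ± 0.457 (SD, n = 4). All 8 factors that act on the serum response element had a mean of at least 1 nRPKM. Library 1 gave the top value of 3 of them and library 4 the bottom value of 4, against 23.3% and 26.7% of tested genes. They were led by Ets2 (14.8 ± 2.20), Elk3 (14.6 ± 2.36) and Elk4 (12.2 ± 0.852). Srf, which encodes serum response factor, had 4.79, 5.93, 4.98 and 2.89 nRPKM and was lowest in library 4. No gene of either list was called for spread in the edgeR test, and none had an unadjusted p under 0.05 or was a DESeq2 outlier.

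Heat shock genes were examined as a further stress readout. All 10 had a mean of at least 1 nRPKM, led by Hsp90ab1 (370 ± 79.4), Hsph1 (30.6 ± 8.11) and Dnajb1 (17.8 to 23.5; SD, n = 4 for the others). Of the 10, 6 were highest in library 1, against 23.3% of tested genes. The inducible genes Hspa1a and Hspa1b, named after their values were seen, had 16.4 and 10.8 nRPKM in library 1 against 1.38 to 2.52 and 1.31 to 1.92 in libraries 2 to 4. Their sequences are nearly identical, so the split of reads between them is uncertain. None of the 10 was called in the edgeR test. An unadjusted p under 0.05 was found for 3, against 5.13% of tested genes, and 2 were DESeq2 outliers, against 0.471%.

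**Figure D5:**
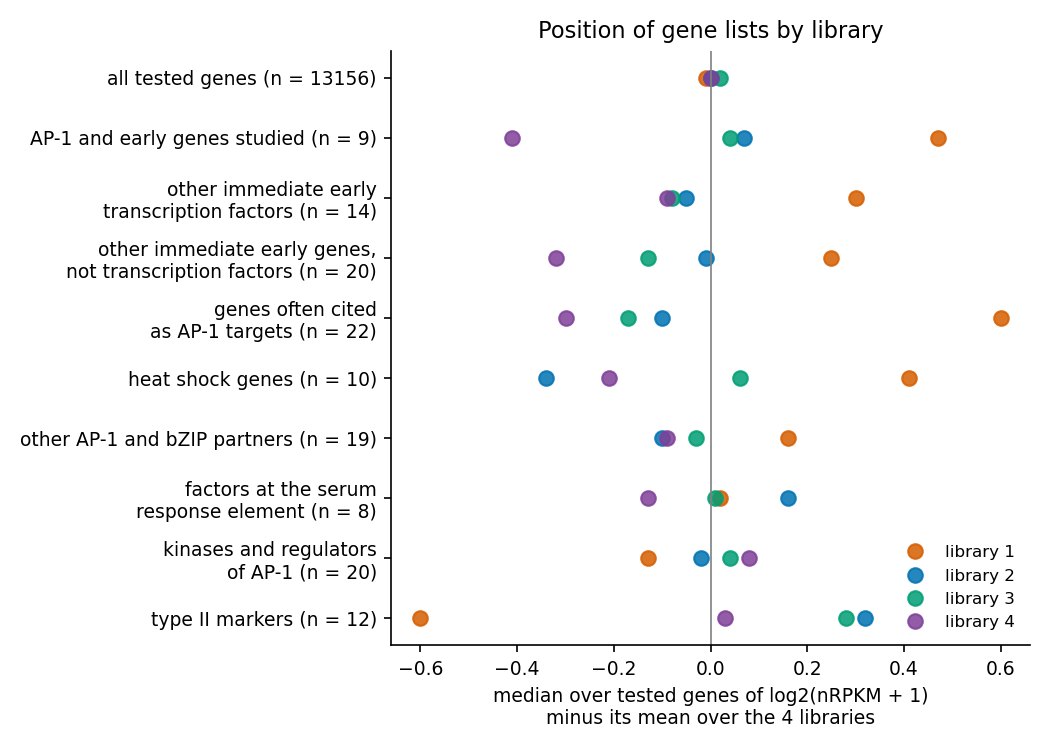
Median over the tested genes of each list of log2(nRPKM + 1) minus its mean over the 4 libraries, 1 point per library. Library 1 lies to the right for the AP-1 and early genes (0.47) and the AP-1 targets (0.60), slightly to the left for the kinases (-0.13) and far to the left for type II markers (-0.60), while all tested genes lie between -0.01 and 0.02.

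Markers of other cells also differed between libraries. Summed basal cell markers were 150, 103, 20.9 and 48.4 nRPKM in libraries 1 to 4, with 4 of 6 at a mean of at least 1. Summed leukocyte markers were 92.3, 94.6 and 57.2 in libraries 1 to 3 and lower in library 4 (6 of 10 at 1 or more). Of 7 tested leukocyte markers, 5 were lowest in library 4, against 26.7% of tested genes. The median log2 deviations of the 7, 0.78, 0.35, -0.31 and -0.85, had the order of the Fos branch sum. Named after their values were seen, the macrophage gene Cd68 had 35.3, 25.3, 15.6 and 10.5 nRPKM and the myeloid adaptor gene Tyrobp 10.9, 8.81, 2.43 and 1.94. Fcer1g had 12.7, 14.6, 5.01 and 2.24 and Laptm5 7.81, 7.89, 1.95 and 0.947. Lcp1, the highest of the leukocyte list, did not follow: it had 23.3, 36.2, 29.9 and 32.9 and was lowest in library 1. Itgam, with 1.33, 0.938, 1.85 and 0.839, was highest in library 3. The edgeR test called none of the 7 tested markers, and 4 had an unadjusted p under 0.05, against 5.13% of tested genes. The pan-leukocyte gene Ptprc lay between 0.245 and 0.696 nRPKM, and Cd3e was at 0 in libraries 2 and 3. Mesenchymal markers summed to 29.1, 17.9, 5.53 and 12.9 (4 of 8), with Dcn at 14.1 in library 1 and Lum at 0 in library 3. Airway secretory markers summed to 320, 1060, 150 and 281 (5 of 5) and ciliated markers to 11.3 to 18.3 (3 of 6), whereas endothelial markers summed to at most 0.870 with 0 of 7 at 1 or more. Library 1 was highest and library 3 lowest for the basal and mesenchymal sums. In such bulk samples, more cells of a type and more RNA per cell cannot be told apart, and the part of these cells in the AP-1 levels was not tested.

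Many genes followed the pattern of single members more closely than other members did. By the root mean square difference of centred log2 levels over the 4 libraries, among 6025 named genes with a mean of at least 5 nRPKM, Mtln (0.0421), Slc48a1 (0.0512) and Fdx1 (0.0517) lay nearest to Fos. The nearest member was Fosl2 at 0.157, and 98 genes lay nearer. Nearest to Jun were Atf4 (0.0339), Igsf11 (0.0350) and Acyp1 (0.0437), with 328 genes nearer than Fos, the nearest member. Nearest to Egr1 were Cxcl17 (0.0275), Ulk1 (0.0296) and Msrb1 (0.0337), with 109 genes nearer than Jund, the nearest member. With 4 libraries such likeness is common among genes and is given as a description.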

How the data were processed

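RNA-seq tables of 4 libraries with the single group label KRasEtv wt were used. Per the file headers, the authors deposited for each gene a count of uniquely aligned reads and a size-factor-adjusted RPKM (nRPKM). Per the submitters' processing notes, GSNAP and mm9 were used. Versions, annotation and strand use were not given in the sources used here. Within a tolerance of 0.1%, the deposited RPKM was the count times a library factor over a gene length. Symbols were found for 25035 of 28096 identifiers in a RefSeq table of GRCm38.p6, and identifiers without one held 2.48% to 3.71% of counts.

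The members and the 15 other gene lists were chosen with earlier results of these data known. Genes named were all members, any called for spread, and the 3 nearest in pattern to Fos, Jun and Egr1. The 3 highest of each list were also named, except for leukocyte, mesenchymal, basal, airway secretory, ciliated and endothelial markers. Most others were named after their values were seen and are listed as such, or are overlap partners and defining markers. Mapk8, Mapk9 and Srf were named outside these rules, and Mmp10 because it was flagged for an outlying library. Lcp1, Itgam and Pdpn were also named after their values were seen. The values of 1 listed gene are not reported here.

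Spread was tested on deposited counts with edgeR 4.0.16 in R 4.3.3 (TMM, filterByExpr, intercept only, quasi-dispersion over trended prior against F, Benjamini-Hochberg, 0.05). The test was also run on simulated counts, with changes in 1 library larger than the range of any tested member. Its power to call smaller changes was not tested. DESeq2 1.42.0 was an alternative. Paralogs were compared by flipping signs of the log2 differences of the libraries in all ways (exact permutation test, two-sided), adjusted by Benjamini-Hochberg over 9 pairs. Other alternatives were a pseudocount of 0.1, CPM, other scaling, no filter, omission of libraries and, added later, GENCODE lengths, a Fos branch without Fosl1 and GC content. Overlap, GC and 50-base words came from GENCODE vM21 transcripts.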

Additional observations from a re-analysis of the deposited data

Results flagged for a closer look

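Of 81 genes examined, all 10 members included, 9 had 1 library far from the other 3, by Dixon's criterion at the 95% level, which sets the gap against the whole range. Chance gives this for about 1 gene in 20, and the genes named after their values were seen were partly chosen for such gaps. The members among them were Atf3, at 8.93 nRPKM in library 1 against 2.45 to 3.45, and Junb, at 2.48 in library 4 against 3.99 to 4.27. In library 1, Klf6 stood at 37.2 nRPKM, Ptgs2 at 99.8, Dusp1 at 30.8, Hspa1a at 16.4, Hspa1b at 10.8 and Mmp10 at 8.13. Elk4 stood apart in library 2 at 13.5 nRPKM, a narrow gap to 11.6 to 11.9 in the other libraries. In all, library 1 was the library apart for 7 of the 9.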

How the results depend on the processing

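No paired analysis was possible because the samples form a single group. Of 63 recomputed paralog differences, 57 kept their direction, and so did 7 of 8 of the Fos branch minus the Jun branch (0.30 to 0.96), which became -0.10 with Fosl1 left out. The 2 pairs near 0 did not. Where a difference had the same sign in all 4 libraries, omission of a library or another pseudocount could not reverse its mean. Those recomputations are therefore no evidence of stability. Fosl1 minus Fosl2 became -1.71 in CPM, where the longer Fosl2 gains from having no length correction, and ran from -0.09 to 0.14 with a library left out. Jund minus Junb became 0.61 in CPM and 0.64 with GENCODE lengths, and ran from -0.12 to 0.09 with a library left out. No p could reach 0.05 in these tests, so they say nothing about stability.

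The number of genes called for spread was 2, and 66 without the filter, 62 by DESeq2 outliers and 0 to 6 with a library left out (6 without library 1, 0 without library 2 or 3). The cause was not tested. Members were called in none of the edgeR settings, and members with an unadjusted p under 0.05 numbered 3, and 1 (without library 1) to 4 (without library 3) with a library left out. Without the filter, Fosb also had such a p. Counts of members highest in library 1 ran from 6 to 8 and of members lowest in library 4 from 6 to 9 over the alternatives. The 8 came with library 2 left out, and the 9 with library 2 left out and in CPM on total counts. With another library left out, such a count can only stay or rise. The shares of all tested genes under these alternatives were not computed. The number of members with a mean of at least 10 nRPKM was 3, and 1 without library 1. Levels resting on fewest reads, those of Fosb, are limited by depth.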
